A study of Homo sapiens with 6 samples.

Results

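Fatty acid activation and oxidation was examined in C4-2 cells, a castration-resistant prostate cancer cell line derived from LNCaP, through 9 genes chosen by symbol: ACSL1, ACSL3, ACSL4, ACSL5, CPT1A, CPT2, HADHA, AMACR and ACOX3. All 9 were found among the 55765 gene symbols counted, and each passed the filter on low counts, ACSL5 only through its higher level in the DMSO libraries. RNA sequencing was compared between 3 libraries of cells given the solvent DMSO and 3 libraries of cells given 1 nM R1881, a synthetic androgen, for 72 h. This dose is a supraphysiological androgen level, abbreviated SAL. Both groups were the same cell line, grown with 5% FBS, so the comparison covers 1 line at 1 dose and 1 time. The libraries carry replicate numbers 1 to 3 in each group and were compared as same-numbered pairs. The study ran the sequencing 3 times independently, and p-values measure the spread between these libraries only.

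A fatty acid that enters a cell is first joined to coenzyme A by an acyl-CoA synthetase, and the acyl-CoA can then be built into lipids or oxidised. For oxidation in mitochondria, long-chain acyl groups are passed to carnitine, carried across the inner membrane, returned to coenzyme A and shortened in repeated cycles. Very long and branched chains are shortened in peroxisomes, which have their own oxidases. In prostate cancer, the peroxisomal racemase AMACR is a known tissue marker.

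After removal of rRNA genes, each library held between 6931042 and 9776990 gene counts. Reads outside annotated genes made up 32.6% to 51.1% of reads in the DMSO libraries and 26.7% to 46.3% in the SAL libraries. The androgen-induced genes KLK3, KLK2, TMPRSS2 and FKBP5 were all up-regulated by SAL, by log2 fold changes between 0.77 and 3.36, which checks the labels of the libraries. Of 9 luminal prostate markers, all reached 10 counts in at least 1 library. Of 11 counted markers of immune, endothelial, fibroblast and basal cells, 2 did, COL1A1 with up to 88 reads and VWF with up to 35. PTPRC, CD3E, COL1A2 and KRT5 were at 0 in every library. The summed level of these other markers was 3.47 to 14.8 CPM in DMSO and 3.20 to 13.7 CPM in SAL, where CPM is the count scaled to a common library size. The summed level of the luminal markers, KLK3 among them, was 2735 to 5225 CPM in DMSO and 5006 to 10253 CPM in SAL, and its part in the results was not tested. In RNA from whole cultures, fewer cells of a kind and less RNA per cell cannot be told apart.

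The start regions of ACSL3, with the largest change, and CPT1A, with none past the threshold, are shown because they differ in response. ACSL1 is shown for an internal start, 1 of several listed for this gene. It holds the only matches to the androgen receptor half-site among the up-regulated genes. Each sequence shown is the 250 bases before a RefSeq start (table of build GRCh38.p14, placed in GRCh37 by exact match), written 5′ to 3′ on the strand of the gene. Capitals mark AGAACA or its reverse complement TGTTCT.
ACSL3, chr2:223725504-223725753, plus strand: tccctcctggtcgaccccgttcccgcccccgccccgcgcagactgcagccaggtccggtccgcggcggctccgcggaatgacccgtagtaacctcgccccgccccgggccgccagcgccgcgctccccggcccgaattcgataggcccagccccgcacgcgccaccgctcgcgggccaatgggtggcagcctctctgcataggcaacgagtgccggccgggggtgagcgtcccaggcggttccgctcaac
CPT1A, chr11:68611746-68611995, minus strand: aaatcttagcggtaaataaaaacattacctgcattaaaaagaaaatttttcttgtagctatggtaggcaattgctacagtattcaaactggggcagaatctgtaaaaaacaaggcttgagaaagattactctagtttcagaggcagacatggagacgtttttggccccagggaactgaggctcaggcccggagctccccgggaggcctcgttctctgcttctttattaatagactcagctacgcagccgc
ACSL1, chr4:185733406-185733655, minus strand: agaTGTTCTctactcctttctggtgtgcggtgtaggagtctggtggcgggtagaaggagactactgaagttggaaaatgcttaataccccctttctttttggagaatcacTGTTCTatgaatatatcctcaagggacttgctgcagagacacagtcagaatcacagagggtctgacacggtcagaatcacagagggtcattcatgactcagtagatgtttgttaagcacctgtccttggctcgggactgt
The ACSL3 window is 75.2% G and C with 35 CG dinucleotides, and the CPT1A window 44.4% with 7. The CPT1A window lies upstream of the start of its canonical transcript, at 68609384. Among genes not past the threshold, the CPT2 and HADHA windows hold 65.2% and 68.8% G and C, and the ACSL5 windows less. Among the up-regulated genes, the AMACR window holds 66.4% and those of ACOX3 and ACSL4 more. The ACSL1 windows run from 46.8%, in the one shown, to 83.6%. Whether G and C content goes with response was not tested. Of the 15 start windows listed for the 9 genes, 2 held AGAACA on either strand, against 12.4% of all 35116 windows. The 2 were the ACSL1 window shown and 1 of ACSL5, which was not up-regulated. Whether such matches go with response was not tested. AGGTCA, the half-site of PPAR response elements, was found in 1 of the 15 windows, also of ACSL5, against 12.1% of all windows. The full palindrome, AGAACA and TGTTCT 3 bases apart, was not found within 50 kb of the start of any of the 9 genes in GRCh37, where 1.90% of the 13138 tested genes with an annotated start had it. Its looser core, GNACA and TGTNC 3 bases apart, was not found within 5 kb of any of them, where 11.4% of genes had it. These are matches of letters, and say nothing of binding.

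SAL up-regulated 5 of the 9 genes, which were ACSL3, ACSL1, ACSL4, AMACR and ACOX3. A gene was counted as up- or down-regulated when its Benjamini-Hochberg adjusted p over all 16835 genes tested was under 0.05 in edgeR's quasi-likelihood test with the replicate number as a block. Of all genes tested, 11.5% were up-regulated and 9.37% down-regulated. For the 9 genes the median change was 0.54 on the log2 scale, beside -0.0011 over all genes. The 9 were chosen with earlier results of these data known, so the 5 calls and this median are descriptions of them only. Of the 9, 7 were higher in SAL and 2 lower, and the fit placed 0 past the threshold as down-regulated (1 at an unadjusted p under 0.05, ACSL5, and 0 down-regulated with DESeq2). All SAL libraries lay above all DMSO libraries for 4 genes, ACSL1, ACSL3, ACSL4 and AMACR, and below them for ACSL5, where 3.78% and 3.73% of all genes tested did so. ACSL5 passed the filter only through the DMSO libraries, so its lower place and its unadjusted p are descriptions. Without the pair of replicate 3, 2 genes were up-regulated, ACSL1 and ACSL3, and without the replicate block 0 were (1 at an unadjusted p under 0.05, ACSL3).

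**Figure D1:**
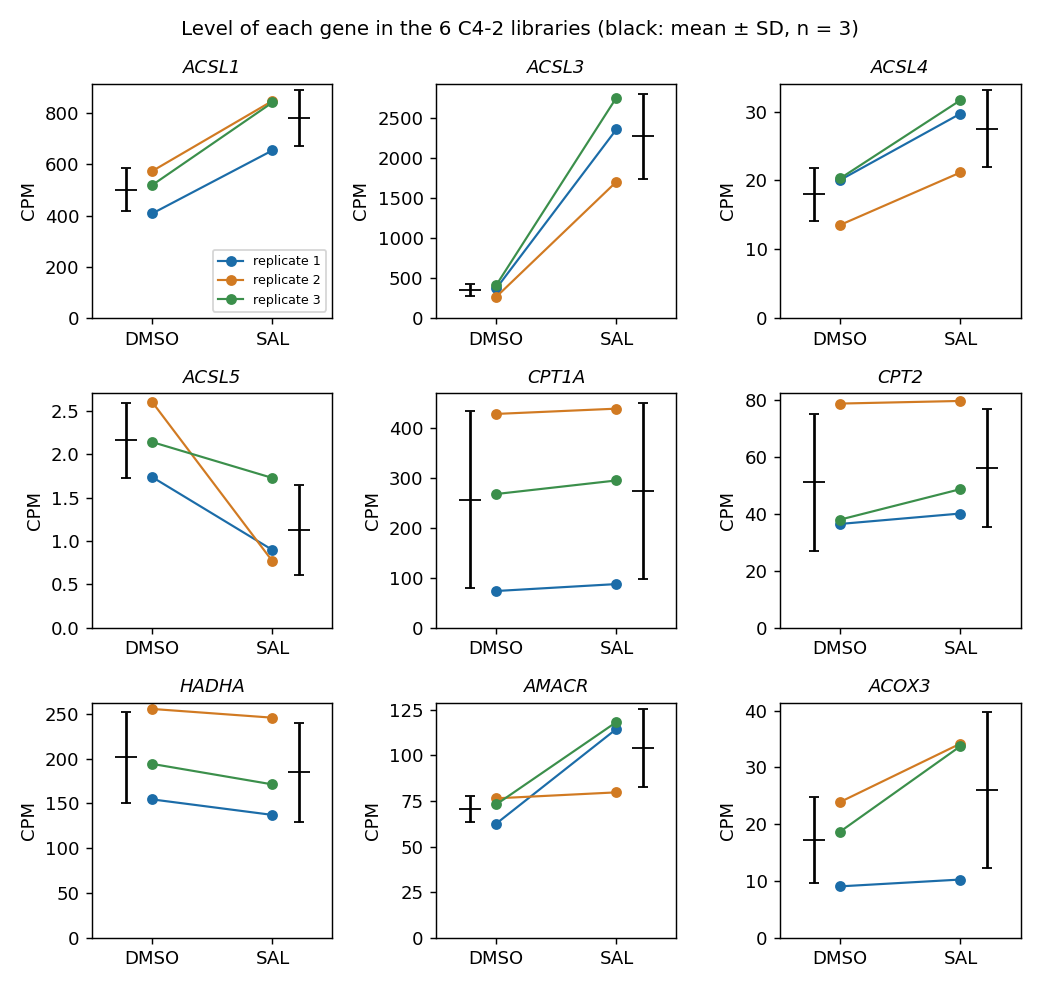
Level of each of the 9 genes in CPM in the 3 DMSO and 3 SAL libraries, with same-numbered libraries joined by a line and the mean ± SD of each group in black. The lines of ACSL1, ACSL3 and ACSL4 rise in every pair, while for CPT1A and HADHA the distance between any 2 replicates of a group is larger than the step from DMSO to SAL, and for CPT2 only replicate 2 stands apart.

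Activation. ACSL3, a long-chain acyl-CoA synthetase of the endoplasmic reticulum and of lipid droplets, changed most of the 9. It lies on chromosome 2 from 223725660 to 223809357 on the plus strand in GRCh37. Its level was 369.8, 265.0 and 411.9 CPM in DMSO replicates 1, 2 and 3 and 2362, 1707 and 2760 CPM in the SAL replicates. The lowest SAL library was thus far above the highest DMSO library. ACSL3 thus changed by 2.70 ± 0.10 (SE) on the log2 scale (adjusted p = 5.69e-11), or 6.51-fold with a 95% confidence interval of 5.63 to 7.52. The change was 2.67, 2.69 and 2.74 on the log2 scale in the 3 pairs, so the pairs differed little beside the size of the change. Among all genes tested, ACSL3 was the 75th from the top by log2 fold change, and by mean CPM, not scaled by length, it moved from rank 327 in DMSO to rank 19 in SAL.

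ACSL1, the long-chain acyl-CoA synthetase found at the endoplasmic reticulum and the mitochondrial outer membrane, is found on chromosome 4 between 185676749 and 185747972, minus strand. Its level was 408.2, 573.9 and 519.2 CPM in the DMSO replicates and 654.5, 847.8 and 841.8 CPM in the SAL replicates. The groups did not overlap, and replicate 1 was the lowest in both. Its fitted change was 0.65 ± 0.09 (SE) on the log2 scale (adjusted p = 0.000104), or 1.57-fold with an interval of 1.37 to 1.79. The pairs changed by 0.68, 0.56 and 0.70. ACSL1 was past the threshold in each fit with the replicate block, with a log2 fold change between 0.62 and 0.67.

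ACSL4, which prefers arachidonic acid and other polyunsaturated fatty acids and is known for its part in ferroptosis, lies on the X chromosome from 108867473 to 108976632 on the minus strand. It was much less abundant, with 20.1, 13.5 and 20.3 CPM in the DMSO replicates and 29.7, 21.2 and 31.7 CPM in the SAL replicates. Replicate 2 was the lowest in both groups, and its SAL library was only just above the highest DMSO library. For ACSL4 the fitted log2 fold change was 0.62 ± 0.13 (SE; adjusted p = 0.00330), with 0.56, 0.63 and 0.63 in the pairs. Without the pair of replicate 3 the change was 0.60 with an adjusted p of 0.0912.

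ACSL5, a mitochondrial member of the family best known from intestine and liver, lies on chromosome 10 from 114133874 to 114188137 on the plus strand. It was near the limit of counting, with 14, 19 and 16 reads in the DMSO replicates and 7, 7 and 14 in the SAL replicates. This corresponds to 1.73, 2.60 and 2.14 CPM in DMSO and 0.896, 0.767 and 1.72 CPM in SAL. The groups did not overlap, but the highest SAL library nearly reached the lowest DMSO library. ACSL5 passed the filter on low counts only through the DMSO libraries, so its fitted log2 fold change is given as a description. It was -0.95 ± 0.42 (SE; adjusted p = 0.126), with pairs of -0.79, -1.48 and -0.27. A change in ACSL5 could therefore not be told from 0 after adjustment over all genes at this depth.

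The 4 ACSL genes can be set beside each other only per length. Per kilobase of the canonical transcript, ACSL1 was the highest in all 3 DMSO libraries and ACSL3 in all 3 SAL libraries. The sum of the 4 was 181, 206 and 219 CPM per kb in the DMSO replicates and 606, 539 and 729 in the SAL replicates, a ratio within pairs of 3.35, 2.62 and 3.33. ACSL3 made up 31.2% ± 7.14 of this sum in DMSO and 64.9% ± 7.06 in SAL (SD, n = 3). ACSL1 made up 66.7% ± 7.55 and 34.2% ± 7.16, although its own level rose. ACSL4 fell from 1.84% ± 0.46 to 0.898% ± 0.0999 of the sum while its own level rose as well. ACSL3 rose more than ACSL1 by 1.99, 2.12 and 2.05 on the log2 scale in the 3 pairs, and more than ACSL4 by 2.11, 2.05 and 2.11. With the union of all annotated exons as the length, ACSL3 made up 23.6% ± 5.94 and 55.8% ± 7.56.

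**Figure D2:**
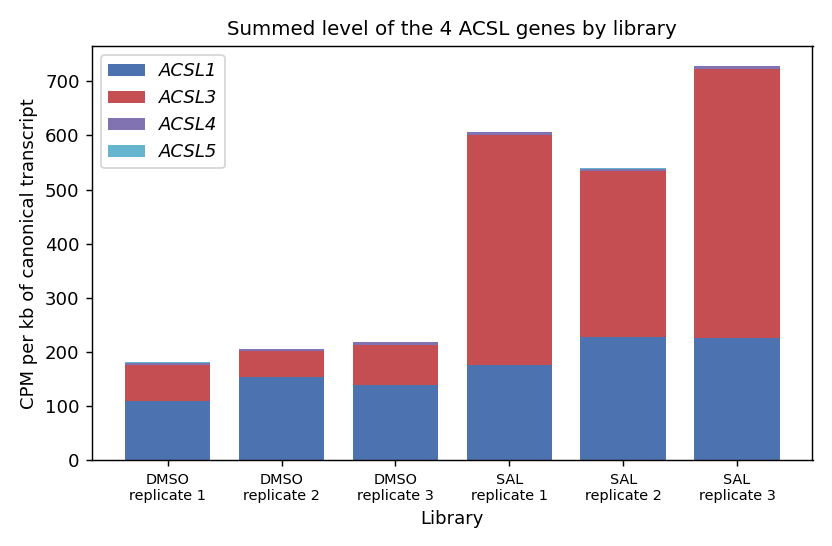
Summed level of the 4 ACSL genes in each library, in CPM per kb of the canonical transcript, stacked by gene. The DMSO libraries reach 181 to 219 and are mostly ACSL1, and the SAL libraries reach 539 to 729 and are mostly ACSL3.

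Carnitine shuttle and mitochondrial oxidation. CPT1A, CPT2 and HADHA did not pass the threshold, and 94.5% to 99.4% of the sum of squares of their log2 CPM lay between replicate numbers, for CPT2 mostly through replicate 2. CPT1A encodes the carnitine palmitoyltransferase of the mitochondrial outer membrane, the regulated entry step of long-chain oxidation, and lies on chromosome 11 from 68522088 to 68611878 on the minus strand. Its level was 73.6, 428 and 267.5 CPM in the DMSO replicates and 87.5, 438 and 295 CPM in the SAL replicates. Replicate 2 was thus 5.81 times replicate 1 in DMSO, and 5.01 times in SAL. The treatment made up 0.465% of its sum of squares. On the log2 scale CPT1A differed by 0.14 (adjusted p = 0.338), with an interval of 0.959- to 1.26-fold.

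CPT2, the transferase on the inner side of the inner membrane, lies on chromosome 1 from 53662464 to 53679869 on the plus strand. Its level was 36.5, 78.9 and 38.1 CPM in the DMSO replicates and 40.2, 79.8 and 48.8 CPM in the SAL replicates. Replicate 2 stood highest in both groups, and the groups overlapped. Its log2 fold change was 0.16 (adjusted p = 0.319), with an interval of 0.957- to 1.31-fold. HADHA encodes the alpha subunit of the mitochondrial trifunctional protein, which carries out the later steps of each cycle on long chains, and lies on chromosome 2 from 26413504 to 26467540 on the minus strand. Its level was 154.5, 255.6 and 194.1 CPM in the DMSO replicates and 137.2, 245.8 and 171.3 CPM in the SAL replicates. The 3 pairs of HADHA differed by -0.17, -0.06 and -0.18 on the log2 scale, less than the distance between replicates. Its log2 fold change was -0.14 (adjusted p = 0.334), with an interval of 0.796- to 1.04-fold. For these 3 genes the intervals leave no room for a change of the size seen in ACSL3.

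Peroxisomal oxidation. AMACR, the racemase that lets branched-chain acyl-CoA enter oxidation, lies on chromosome 5 from 33986270 to 34008209 on the minus strand. Its level was 62.6, 76.4 and 73.1 CPM in the DMSO replicates and 114, 79.7 and 118 CPM in the SAL replicates. The groups did not overlap, but SAL replicate 2 was close to DMSO replicate 2. AMACR changed by 0.54 ± 0.14 (SE) on the log2 scale (adjusted p = 0.0164), or 1.46-fold with an interval of 1.18 to 1.80. The pairs changed by 0.87, 0.06 and 0.69, and without the pair of replicate 3 the adjusted p was 0.198. In the annotation used here, 61.4% of the exon bases of AMACR also belong to a read-through gene, C1QTNF3-AMACR, on the same strand. Another gene on that strand shares 18.5% of them. Neither was counted under its own name in these libraries. How much of the AMACR count comes from each of these genes cannot be told apart.

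ACOX3, the peroxisomal oxidase of branched-chain acyl-CoA, lies on chromosome 4 from 8368009 to 8442450 on the minus strand. Its level was 9.04, 23.9 and 18.7 CPM in the DMSO replicates and 10.2, 34.2 and 33.8 CPM in the SAL replicates. The groups overlapped, and replicate 1 was the lowest in both. Its fitted change was 0.55 ± 0.15 (SE) on the log2 scale (adjusted p = 0.0169), or 1.47-fold with an interval of 1.17 to 1.84, and 0.18, 0.51 and 0.84 in the pairs. This was the least stable of the 5 calls, with an adjusted p of 0.0880 with DESeq2, 0.0671 without the pair of replicate 2 and 0.381 without the pair of replicate 3.

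**Figure D3:**
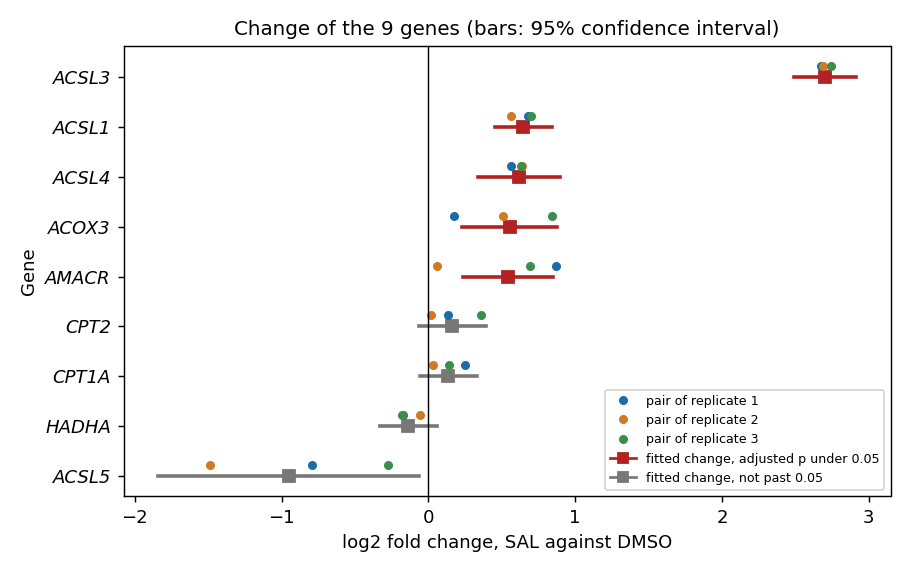
Log2 fold change of the 9 genes in SAL against DMSO, with the fitted change as a square, its 95% confidence interval as a bar and the change in each same-numbered pair as a small point. The points of ACSL3 lie between 2.67 and 2.74, while those of AMACR run from 0.06 to 0.87 and those of ACOX3 from 0.18 to 0.84.

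Ordered by mean level per kilobase of the canonical transcript, the DMSO libraries ran ACSL1, HADHA, ACSL3, CPT1A, CPT2, AMACR, ACOX3, ACSL4 and ACSL5. ACSL1 was at 135 ± 22.7 CPM per kb, HADHA at 68.4 ± 17.3, ACSL3 at 62.6 ± 13.6 (below HADHA in only 1 of 3 libraries) and ACSL5, the lowest, at 0.663 ± 0.133 (SD, n = 3). The ranges of HADHA, ACSL3 and CPT1A overlapped from each to the next, as did those of CPT1A and CPT2, CPT2 and AMACR, and ACOX3 and ACSL4. In SAL the order was ACSL3, ACSL1, HADHA, CPT1A, AMACR, CPT2, ACOX3, ACSL4 and ACSL5. ACSL3 was at 408 ± 95.4 CPM per kb and ACSL1 at 210.5 ± 29.6, and their ranges did not overlap. HADHA and CPT1A, CPT1A and AMACR, AMACR and CPT2, and ACOX3 and ACSL4 overlapped. With the union of annotated exons as the length, the ranges of ACSL3 and ACSL1 in SAL overlapped, with ACSL3 the higher in 2 of 3 libraries. With that length CPT1A also stood above ACSL3 in the DMSO order, and AMACR above CPT2 in all 3 DMSO libraries without overlap. In DMSO, only ACSL1 at the top, HADHA after it, and ACOX3, ACSL4 and ACSL5 at the foot thus kept their places. In SAL, ACOX3 stood above CPT2 with that length, in 2 of 3 libraries and with overlapping ranges. The rest of the SAL order was the same.

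Across the 6 libraries, the gene with the pattern most like that of ACSL3 was ACADL, the long-chain acyl-CoA dehydrogenase, itself a gene of fatty acid oxidation. Likeness was the root mean square difference of log2 CPM centred on the mean of each gene, over 10309 genes with a mean of at least 10 CPM, and was 0.178 for ACADL. FAM105A and ERRFI1 followed at 0.222 and 0.280. ACADL had 13.8, 6.56 and 13.4 CPM in the DMSO replicates and 73.5, 47.0 and 84.8 CPM in the SAL replicates. Like ACSL3, it was lowest in replicate 2 of either group. ACADL changed by 2.62 ± 0.13 (SE) on the log2 scale (adjusted p = 1.50e-09). It was picked for its likeness over these same 6 libraries. Its low replicate 2 and the size of its change thus follow from that choice.

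The other genes of fatty acid handling were read from a list of 92 in 7 groups, of which 74 could be tested. Of these, 18 were up-regulated (24.3%, against 11.5% of all genes) and 7 down-regulated (9.46%, against 9.37%), and their median log2 fold change was 0.04. Without the pair of replicate 3 the counts were 9 and 1, and without the replicate block 0 and 0 (6 and 1 at an unadjusted p under 0.05). With DESeq2 and the block they were 15 and 1, the latter LPL, while over all genes the calls also fell, from 1931 to 1290 up-regulated and from 1577 to 950 down-regulated. The lists were also chosen with earlier results of these data known, so their shares are descriptions. The group counts below are small, and are to be read against the shares of 11.5% and 9.37% over all genes.

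Of 14 tested peroxisomal genes, 4 were up-regulated (28.6%). ACAA1, the peroxisomal thiolase, rose from 10.9 to 20.2 CPM across the DMSO libraries to 20.5 to 54.9 CPM across the SAL libraries, a log2 fold change of 1.13 (adjusted p = 4.38e-05), although 19.7% of its exon bases overlap DLEC1 on the other strand. HSD17B4, a bifunctional enzyme of peroxisomal oxidation, changed by 0.53 (adjusted p = 0.000517) and ACOX2, the oxidase of bile acid intermediates and branched chains, by 1.39 (adjusted p = 0.000247). EHHADH, the other peroxisomal bifunctional enzyme, had a log2 value of -0.56 and was lower in 3 of 3 pairs, but did not pass the threshold (adjusted p = 0.0641). The other genes that did not pass, such as SCP2, PHYH and CAT, lay between -0.25 and 0.16. CAT, at -0.25 (adjusted p = 0.0652), was also lower in 3 of 3 pairs. Every SAL library of CAT lay below every DMSO library, as for 3.73% of all genes tested.

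Of 17 genes listed under mitochondrial beta-oxidation, 3 were up-regulated (17.6%) and 1 down-regulated (5.88%), with a median of 0.09. Beside ACADL, the up-regulated genes included ECI2, an enoyl-CoA isomerase of unsaturated chains. ECI2 was counted in this group by the list, and where in the cell its product acts was not tested. Its level was 105, 49.1 and 53.2 CPM in the DMSO replicates and 213, 120 and 147 CPM in the SAL replicates. ECI2 was higher in SAL in every pair, with a log2 fold change of 1.25 (adjusted p = 5.72e-07), although 27.1% of its exon bases overlap the pseudogene TEX56P on the other strand. ACADVL, the very-long-chain dehydrogenase, changed by 0.48 (adjusted p = 0.00225) and ACAD10 by -0.38 (adjusted p = 0.0329). HADHB, which encodes the partner subunit of HADHA in the trifunctional protein, changed by -0.04 (adjusted p = 0.809), and was named after its value had been seen. In the carnitine shuttle, 2 of 6 genes were up-regulated (33.3%), the peroxisomal octanoyltransferase CROT by 0.45 (adjusted p = 0.00794) and the carnitine-acylcarnitine carrier SLC25A20 by 0.69 (adjusted p = 0.0167; 0.0938 with DESeq2).

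Among 14 other acyl-CoA synthetases and fatty acid transport proteins, 2 were up-regulated and 2 down-regulated (14.3% each), near the shares over all genes. ACSM1, a synthetase of medium-chain acids, had 4, 13 and 8 reads in the DMSO replicates and 6.28, 10.7 and 7.64 CPM in the SAL replicates, against 0.496, 1.78 and 1.07 CPM in DMSO. ACSM1 passed the filter on low counts only through the SAL libraries, so its fitted log2 fold change of 2.90 is given as a description, although it is among the 18 calls. ACSS2, which activates acetate, changed by 0.69 (adjusted p = 0.000152) and SLC27A2 by -0.40 (adjusted p = 0.0439). ACSS3 passed the filter only through the DMSO libraries, so its fitted value of -1.21 is given as a description. It is nevertheless among the 7 down-regulated calls. Neither ACSS3 nor SLC27A2 passed the threshold with DESeq2, and 19.95% of the exon bases of SLC27A2 overlap ATP8B4 on the other strand. Of 7 thioesterases, which split acyl-CoA again, 1 was up-regulated (14.3%), ACOT9, by 1.24 (adjusted p = 8.15e-07).

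Of 7 regulators, 2 were up-regulated (28.6%) and 3 down-regulated (42.9%). PPARA, the nuclear receptor that induces fatty acid oxidation genes, rose by 0.43 on the log2 scale (adjusted p = 0.0180). MLYCD, which removes the CPT1 inhibitor malonyl-CoA, rose by 0.63 (adjusted p = 0.0104). ACACB, which makes malonyl-CoA at mitochondria, fell by 0.51 (adjusted p = 0.0103). PPARGC1B, a coactivator, fell by 0.38 (adjusted p = 0.0193) and the receptor gene PPARD by 0.42 (adjusted p = 0.0399). None of these 5 passed the threshold with DESeq2. Of 9 genes of uptake and lipid droplets, 4 were up-regulated (44.4%) and 1 down-regulated (11.1%). MGLL and PNPLA2, lipases that release fatty acids from monoglycerides and triglycerides, were up-regulated 2.30-fold (adjusted p = 0.00114) and by 0.65 on the log2 scale (adjusted p = 0.00857). The lipid droplet protein gene PLIN3 changed by 0.70 (adjusted p = 0.00107), although 18.3% of its exon bases overlap a long noncoding RNA gene on the other strand. DGAT1, which makes triglycerides and was named after its value had been seen, changed by 0.73 (adjusted p = 0.0148). LPL, the lipase that acts on lipoproteins outside the cell, had 23.4, 11.9 and 15.9 CPM in the DMSO replicates and 9.60, 4.93 and 7.27 CPM in the SAL replicates. Every SAL library was below every DMSO library, with a log2 fold change of -1.23 (adjusted p = 9.38e-05).

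**Figure D4:**
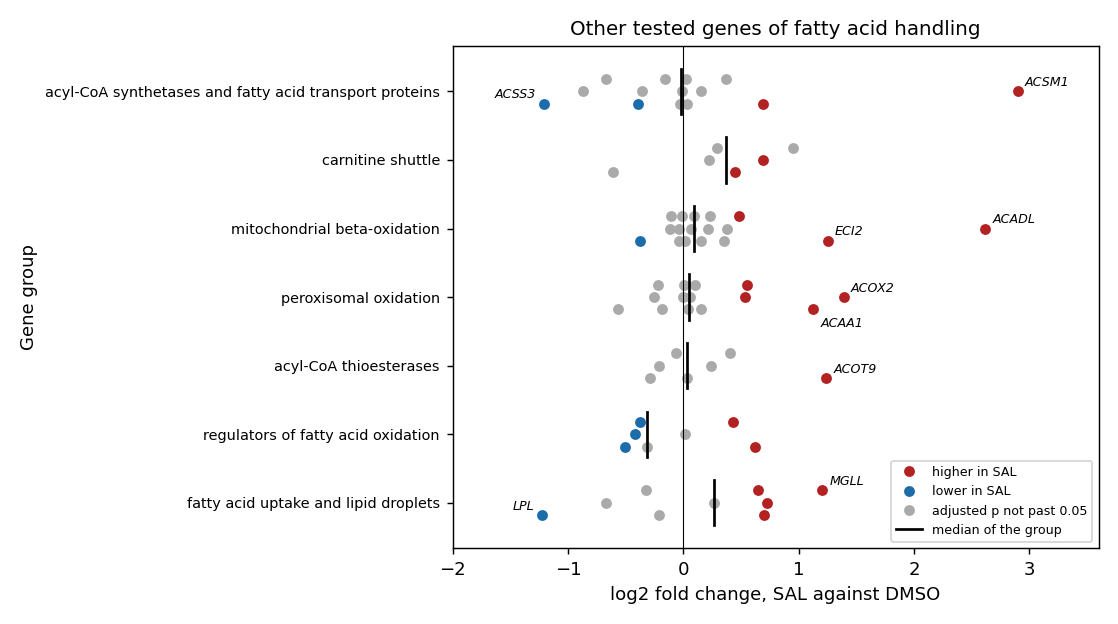
Log2 fold change in SAL against DMSO of the 74 other tested genes in 7 groups, 1 point a gene, coloured by whether and in which direction the adjusted p was under 0.05, with the median of each group as a black bar. The medians lie between -0.31 for the regulators and 0.37 for the carnitine shuttle. ACADL stands apart at 2.62, as does ACSM1 at 2.90. ACSM1 passed the filter on low counts only through the SAL libraries, so its place is a description.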

How the data were processed

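RNA-seq of 6 C4-2 libraries was used, grouped and numbered by their titles. The raw counts per gene symbol were deposited by the authors, who aligned read 1 of trimmed pairs to hg19 (TopHat2 2.1.0) and counted against gencode v19 without strand (HTSeq 0.11.2), so overlapping genes on opposite strands are not fully separated.

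Following the study, 523 rRNA symbols were removed and libraries were paired by number. Deviations from group means correlated at 0.887, 0.856 and 0.739 in same-numbered pairs. edgeR 4.0.16 (R 4.3.3) was applied with filterByExpr, TMM and the robust quasi-likelihood test, and the procedure was tested on simulated data. Standard errors were derived from F, and pair changes used a prior count of 2. Positions and lengths come from GENCODE annotation v44 mapped to GRCh37, the assembly behind hg19.

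Members and lists were chosen with earlier results of these data known. Named genes were the members, androgen-induced controls, up to 3 called genes per pathway group and direction by smallest adjusted p, and the 3 genes most like the member with the smallest adjusted p. DGAT1, HADHB, EHHADH, SCP2, PHYH and CAT were named after their values were seen. Some genes of these lists are not reported here by name. Alternatives were DESeq2 1.42.0 with the block, its size factors in edgeR, omission of the block or of the filter, a minimum of 10 counts per library, retention of rRNA genes, removal of mitochondrial genes, and omission of each replicate number. Exon union length was added after the data were seen.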

Additional observations from a re-analysis of the deposited data

How the results depend on the processing

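All 9 genes kept the direction of their change in every alternative in which they were tested. Without the replicate block, 0 of the 9 were up-regulated, as were 0 pathway genes, with 0 pathway genes and 3 of all genes down-regulated and 18 of all genes up-regulated. There the log2 fold change of ACSL3 was 2.71 with an adjusted p of 0.0671. With DESeq2 and the block, 1 pathway gene and 950 of all genes were down-regulated, and without the filter 11 pathway genes were. When 1 replicate number was left out at a time, between 2 and 5 of the 9 genes were up-regulated, between 9 and 23 pathway genes were up-regulated and between 1 and 10 down-regulated, and between 750 and 2443 of all genes were up-regulated and between 483 and 1955 down-regulated, in each case fewest without replicate 3. No other alternative moved a count by more than 1.5 times, and the cause of these differences was not tested. Fits without a replicate rest on 2 pairs. With the union of exons as the length, chosen after seeing the data, ACSL3 was 23.6% of the 4 ACSL genes in DMSO and 55.8% in SAL, against 31.2% and 64.9%. Depth limits ACSL5 most, with at most 19 reads in a library, and 6 libraries of 1 cell line limit every test.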
